A study of Rattus norvegicus with 15 samples.

Results

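The synaptic vesicle, SNARE and Rab genes described here were chosen by symbol, with earlier results of these data known. The rule took synaptotagmins (Syt), syntaxins (Stx), syntaxin-binding proteins (Stxbp), Snap and Vamp proteins, Syn1, Syn2, Syn3, synaptophysin (Syp), Sv2 proteins, numbered Rab genes and the rabphilin genes. It found 69 genes on 71 probes, among 4153 genes on 4423 probes that carried 1 gene symbol. By role these were 9 vesicle proteins, 13 synaptotagmins, 6 Vamp genes, 12 syntaxin and Snap genes, 2 syntaxin-binding proteins and 27 Rab genes, the last including the Rab regulator Rab3ip. Vamp2 and Rab1a had 2 probes each. Among them, 15 genes of the neuronal release machinery were described whatever their values.

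Vesicles fuse when a Vamp protein on the vesicle pairs with a syntaxin and a Snap protein on the target membrane, the bundle known as the SNARE complex. Syntaxin-binding proteins hold or open the syntaxin, synaptotagmins couple fusion to calcium, and Rab GTPases decide which vesicle meets which membrane. In sensory neurons this machinery releases glutamate and neuropeptides at terminals, and it also adds the membrane by which axons lengthen. Not all of these genes are neuronal, since many Rab genes and the syntaxins of endosomes, Golgi and plasma membrane work in every cell.

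Cells of L4 and L5 dorsal root ganglia (DRG) of juvenile rats were dissociated, plated in Sato medium and given 1.5 mM dibutyryl cAMP (dbcAMP), a membrane-permeable analog of cAMP, or medium alone. RNA was compared after 1, 3, 6, 12 or 18 h on 15 spotted-oligonucleotide arrays, 3 per time, and each deposited value was a ratio of treated (Cy5) over control (Cy3) cells. The first group was labelled 1 h although the labels' treatment protocol lists 0 h, and the dishes were coated with myelin or poly-L-lysine, which of them is not stated for any array. No strain, sex or exact age was given, and it is not stated if replicate arrays used independent cultures. The p-values therefore reflect array-to-array spread alone, which may be technical.

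The ganglion cells were mixed, and a ratio gives no level, so the presence of neurons could not be checked from marker levels, and fewer cells of a type cannot be told apart from less RNA per cell. The dyes were never exchanged, so a constant dye bias of a probe cannot be told apart from a treatment effect that is the same at every time. The SD of the log2 ratios over all probes was 0.357 to 0.434 on 9 arrays. It was wider, 0.627 to 0.703, on 6 arrays: every 18 h array, the first and second at 12 h, and the third at 6 h. All 71 member probes had a ratio on all 15 arrays. Values below are log2 ratios of treated over control, where 0 is no difference and 1 is a doubling, and a probe is called changed when its adjusted p was under 0.05.

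Of the vesicle, SNARE and Rab probes, 15 were called changed at 1 or more times and 56 at none. The share of all probes called at any time was not taken. At 18 h, 22% of all probes were called, whether or not they were also called at other times. Vamp1 rose at 4 times, Stx4 fell at all 5, Syt4 rose at 3 and 6 h, and the other 12 were called at 1 to 3 times. At 1 h, 4 of 71 members were called (5.63%), against 2.33% of all probes; 1 was higher (0.732% of all probes) and 3 were lower (1.6%). At 3 h, 3 members were called (4.23%), against 2.87% of all probes, with 2 higher (0.931%) and 1 lower (1.94%). At 6 h, 6 members were called (8.45%), against 4.19%, with 3 higher (1.84%) and 3 lower (2.35%). At 12 h, 5 members were called (7.04%), against 8.58%, with 1 higher (3.81%) and 4 lower (4.77%). At 18 h, 11 members were called (15.5%), against 22% of all probes, with 4 higher (10.6%) and 7 lower (11.3%). Members were thus called at a share above that of all probes at the first 3 times and below it at the last 2, a difference for which no test was made. The early calls were few and mostly of the same probes. Stx4 and Vamp1 were called at 1, 3 and 6 h, Syn2 at 1 and 6 h, and Syt4 at 3 and 6 h. With the centring on probe plates described further on, 2, 2 and 3 members were called at 1, 3 and 6 h. Among all probes, 79, 124 and 163 were then called, beside 118, 145 and 212 without the centring.

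**Figure D1:**
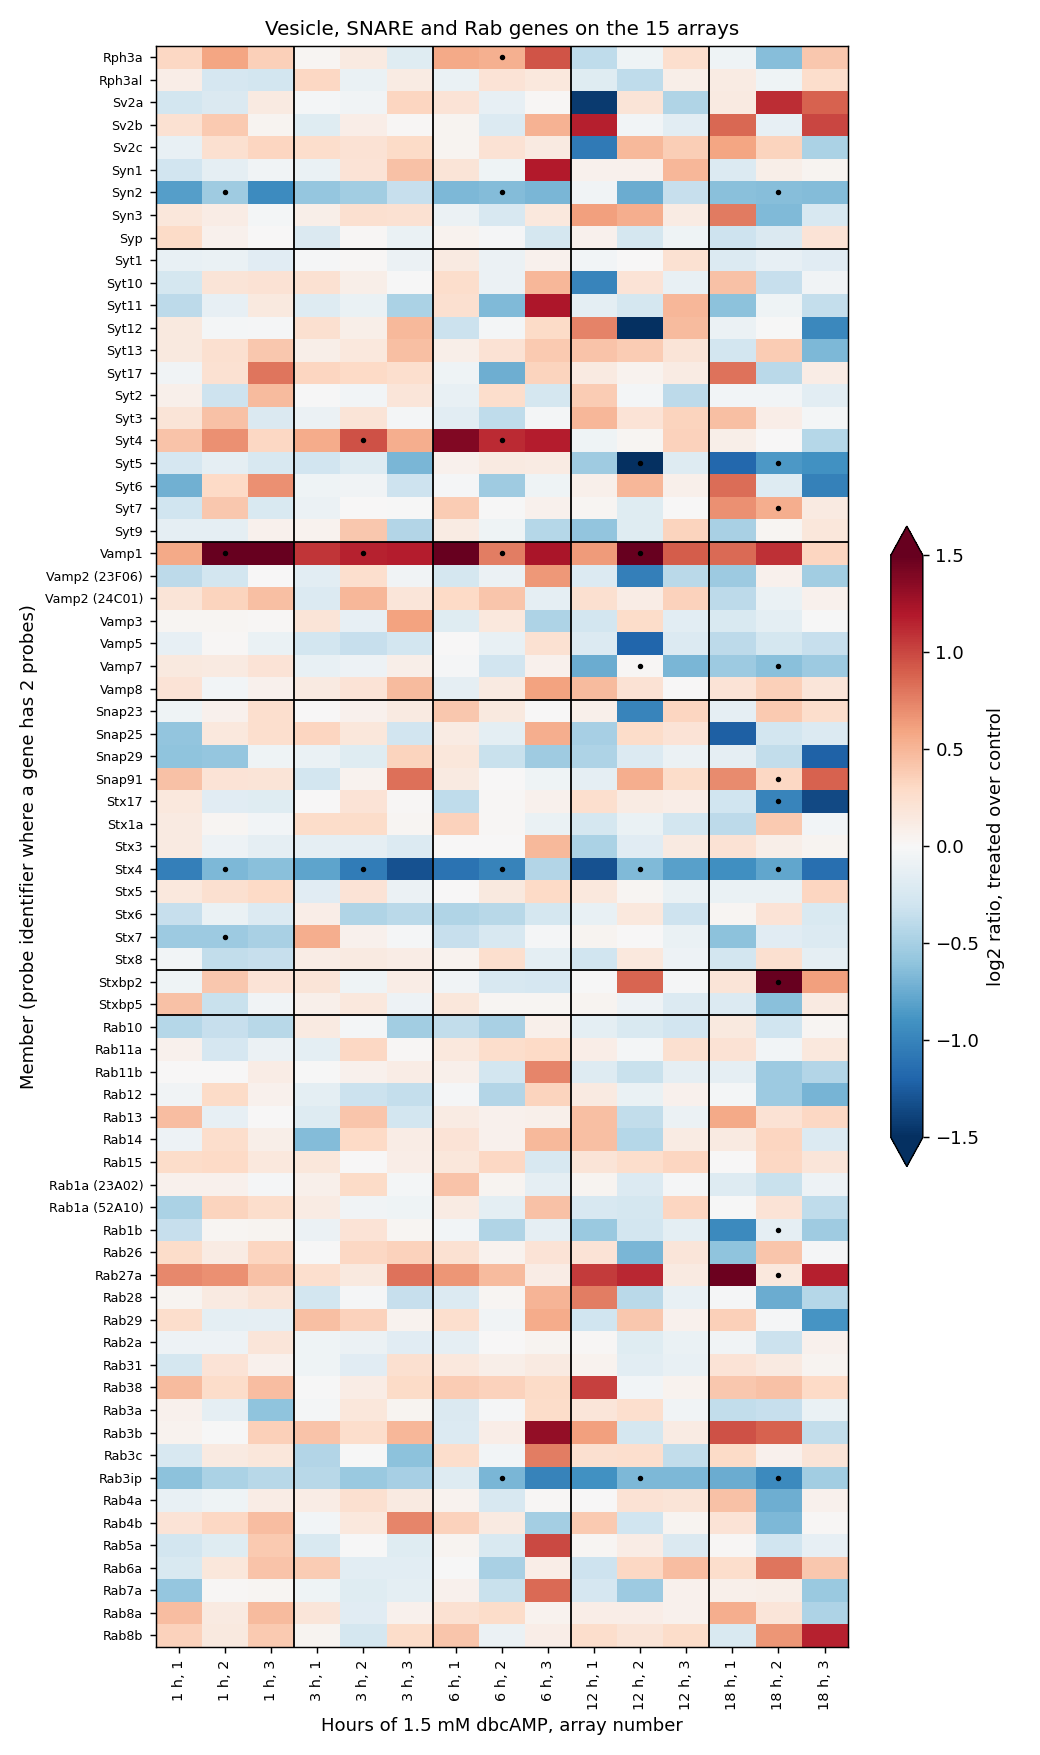
Each row is 1 of the 71 member probes and each column 1 of the 15 arrays, grouped by hours of 1.5 mM dbcAMP; colour gives the log2 ratio of treated over control, with colours saturating at 1.5, and a dot in the middle column of a time marks an adjusted p under 0.05. Horizontal lines part the groups by role; Vamp1 is red and Stx4 and Rab3ip are blue on every array, while most rows change colour from array to array.

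The members as a group did not shift far. Their median log2 ratio was 0.04 at 1 h, 0.05 at 3 h, 0.09 at 6 h, -0.01 at 12 h and -0.08 at 18 h, beside 0.02, 0.02, 0.02, -0.00 and 0.01 for all probes. Member means at 18 h ran from -0.98 for Syt5 to 0.98 for Stxbp2, and those of the 56 probes never called ran from -0.57 to 0.71.

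Among the vesicle proteins, Syn2 was lower on all 15 arrays. Synapsin II coats the vesicle surface, ties vesicles to the cytoskeleton and is, like its relatives, a substrate of the cAMP-dependent kinase. Its log2 ratios on arrays 1, 2 and 3 were -0.83, -0.53 and -0.94 at 1 h, -0.58, -0.52 and -0.35 at 3 h, -0.67, -0.65 and -0.69 at 6 h, -0.05, -0.75 and -0.34 at 12 h, and -0.63, -0.64 and -0.65 at 18 h. The probe fell at 1 h (mean -0.77 ± 0.21, SD, n = 3; adjusted p = 0.00545), at 6 h (-0.67 ± 0.02; adjusted p = 0.00734) and at 18 h (-0.64 ± 0.01, 0.641-fold; adjusted p = 0.00239). Its 3 h mean of -0.48 (adjusted p = 0.0553) and 12 h mean of -0.38 (adjusted p = 0.0771) missed the threshold. The limma difference between 18 h and 1 h was 0.13 (95% interval -0.25 to 0.50; adjusted p = 0.785). A constant bias of the probe cannot be told apart from a steady fall. The 1 h call was lost without array 1 (adjusted p = 0.0564) and without array 3 (0.0738). All 3 calls were lost when each array was centred on the medians of its probe plates, described further on, where the 18 h mean was -0.28 (adjusted p = 0.154).

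Syn1 and Syn3, the other synapsins, were not called at any time. The means of Syn1 over the 5 times ran from -0.16 to 0.44, and its highest value, 1.19, was on array 3 at 6 h. Those of Syn3 ran from -0.06 to 0.43.

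Rph3a, the rabphilin that binds Rab3 on vesicles, rose at 6 h. Its log2 ratios there were 0.57, 0.53 and 0.94 (mean 0.68 ± 0.23, SD, n = 3; 1.6-fold; adjusted p = 0.0437), and its means at the other times ran from -0.10 to 0.42. The 6 h call was lost without array 1, 2 or 3 (adjusted p = 0.115, 0.0856 and 0.287), and with plate centring (0.54; adjusted p = 0.127). Its relative Rph3al was called at no time and had means between -0.16 and 0.11.

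The vesicle membrane proteins Syp, Sv2a, Sv2b and Sv2c were not called. Synaptophysin, the classical marker of the vesicle membrane, had means between -0.11 and 0.12. Sv2a, the vesicle glycoprotein bound by the drug levetiracetam, had ratios of 0.14, 1.11 and 0.88 at 18 h (mean 0.71 ± 0.51, SD, n = 3; adjusted p = 0.0506) and of -1.43, 0.19 and -0.45 at 12 h (mean -0.56 ± 0.81; adjusted p = 0.179). It was thus above 0 on all arrays at 18 h, with a spread nearly as wide as its mean. Sv2b had a mean of 0.58 ± 0.61 at 18 h (adjusted p = 0.114) and Sv2c one of 0.15 ± 0.56 (adjusted p = 0.718).

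Among the synaptotagmins, Syt4 showed a peak at 6 h. This synaptotagmin sits on dense-core and Golgi-derived vesicles and is known as an immediate early gene of depolarized neural cells. Its log2 ratios were 0.43, 0.68 and 0.31 at 1 h, 0.56, 0.95 and 0.54 at 3 h, 1.39, 1.12 and 1.18 at 6 h, -0.06, 0.03 and 0.35 at 12 h, and 0.09, 0.01 and -0.43 at 18 h. The 3 values at 6 h were above all 12 values of the other times, and those at 12 and 18 h lay on both sides of 0. The probe rose at 3 h (mean 0.68 ± 0.23, SD, n = 3; 1.61-fold; adjusted p = 0.0111) and at 6 h (1.23 ± 0.14; 2.34-fold; adjusted p = 0.000194). Its 1 h mean was 0.47 (adjusted p = 0.1), and the 12 and 18 h means were 0.11 (0.674) and -0.11 (0.593). The 6 h call held without any single array (adjusted p = 0.00133 to 0.00349) and with plate centring (1.13; adjusted p = 0.000502), but not when the 6 h arrays were fitted alone (0.0894). The 3 h call was lost without array 1 (0.0502) and without array 2 (0.178).

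Syt4 was also the only member among the 71 whose ratio differed among the 5 times in limma's F test (adjusted p = 0.0111), where 1.87% of all probes were called. A dye bias that is constant over time cancels in that test. Without all arrays of number 1, 2 or 3 the adjusted p was 0.32, 0.265 and 0.129. At an unadjusted p under 0.05 the F test took 14.7% of all probes and 7 members (9.86%), which were Syt4, Stx17, Vamp7, Stx7, Syt5, Rph3a and Sv2a.

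Syt5, a calcium-binding synaptotagmin, fell at the late times. Its log2 ratios were 0.07, 0.14 and 0.12 at 6 h, -0.53, -1.67 and -0.19 at 12 h, and -1.18, -0.86 and -0.91 at 18 h. The means were -0.80 ± 0.78 (SD, n = 3) at 12 h (adjusted p = 0.0289) and -0.98 ± 0.17 at 18 h (0.506-fold; adjusted p = 0.00377), and at 1 and 3 h they were -0.21 and -0.39, neither called. The 12 h mean rested on array 2, without which it was -0.36 (adjusted p = 0.177), and the call was also lost without array 1 (0.0658). At 18 h the arrays lay close together and the call held without any 1 of them, but with plate centring the mean was -0.62 (adjusted p = 0.0516).

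Syt7, which serves slow release and the fusion of lysosomes, rose at 18 h. Its ratios there were 0.69, 0.55 and 0.13 (mean 0.45 ± 0.29, SD, n = 3; 1.37-fold; adjusted p = 0.037), and its means at the 4 earlier times ran from -0.05 to 0.15. Without array 1 or 2 the adjusted p was 0.214 and 0.145, and with plate centring the mean was 0.21 (adjusted p = 0.35).

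The fast calcium sensors of transmitter release were close to 0. Syt1 had means between -0.17 and 0.06, with 18 h ratios of -0.21, -0.12 and -0.17 (adjusted p = 0.209), and Syt2 had means between -0.08 and 0.08. Over all 13 synaptotagmins the median at 18 h was -0.11, with 1 higher and 1 lower. The widest single deviation among them was -2.76, for Syt12 on array 2 at 12 h, where the other arrays gave 0.74 and 0.47.

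Vamp1 had the highest mean of any member at any time, 1.53 at 1 h, although Stxbp2 and Rab27a had higher means at 18 h. It is a vesicle SNARE of fast-firing neurons and of motor and sensory terminals. Its log2 ratios were 0.57, 2.08 and 1.95 at 1 h, 1.07, 1.15 and 1.18 at 3 h, 1.66, 0.77 and 1.22 at 6 h, 0.64, 1.74 and 0.91 at 12 h, and 0.85, 1.10 and 0.32 at 18 h. All 15 values were above 0. The probe rose at 1 h (mean 1.53 ± 0.84, SD, n = 3; 2.89-fold; adjusted p = 0.00953), 3 h (1.14 ± 0.06; adjusted p = 0.042), 6 h (1.21 ± 0.45; adjusted p = 0.0241) and 12 h (1.10 ± 0.57; adjusted p = 0.027), and its mean of 0.75 ± 0.40 at 18 h did not pass (adjusted p = 0.067). The difference between 18 h and 1 h was -0.78 (95% interval -1.62 to 0.06; adjusted p = 0.338), so no change over time was called and, with the dyes never exchanged, a constant bias of the probe cannot be told apart from a steady rise.

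The Vamp1 calls were lost when some arrays were left out. At 1 h this held for array 2 (adjusted p = 0.136) and array 3 (0.117), at 3 h for arrays 1, 2 and 3 (0.18, 0.241 and 0.26), at 6 h for arrays 1 and 3 (0.148 and 0.113), and at 12 h for arrays 1 and 2 (0.0535 and 0.192). The means in those fits stayed between 0.77 and 1.32. With plate centring the 3 h call was lost too (1.07; adjusted p = 0.0632), and the other 3 held. The 1 h call was lost with the 1 h arrays alone (0.0634), the 6 h call with those of 6 h (0.16) and the 12 h call with those of 12 h (0.183), and the 12 h call also with a common spread (0.106) and with array weights (0.143).

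Vamp1 and Syn1 were the 2 members whose promoter window held the full cAMP response element. In RefSeq's promoters on build GRCr8, windows of 300 bases from 250 before to 50 after a gene's start, 54 of the 69 member genes were found. The palindrome TGACGTCA, the element bound by the cAMP-responsive factor CREB, occurred in 2 of these 54 (3.7%) and in 612 of 33469 windows of all genes (1.83%). For Vamp1 it began 71 bases before the start, on chr4:159698773-159698880, plus strand, and for Syn1 190 bases before, on chrX:3725505-3725612, plus strand. The stretches are shown because dbcAMP acts through that pathway; capitals mark the element.
Vamp1: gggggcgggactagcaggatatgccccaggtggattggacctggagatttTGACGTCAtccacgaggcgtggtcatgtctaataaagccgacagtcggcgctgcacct
Syn1: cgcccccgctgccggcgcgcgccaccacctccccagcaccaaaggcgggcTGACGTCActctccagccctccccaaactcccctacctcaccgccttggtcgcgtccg

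The Vamp1 probe was called higher at 4 times and the Syn1 probe at none, and a part of the element in these ratios was not tested. The shorter form TGACG was searched on both strands and is contained in the full element. It occurred in 18 of the 54 member windows (33.3%) and in 7097 of all windows (21.2%). Of the 15 genes called at any time 10 had a window, and the shorter form was in 3 of these, those of Stxbp2, Syt4 and Vamp1. These matches describe letters only, and binding was not measured.

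Vamp7, the Vamp protein of lysosomes and of neurite outgrowth, fell late. Its log2 ratios were 0.15, 0.13 and 0.20 at 1 h, -0.74, 0.02 and -0.68 at 12 h, and -0.55, -0.63 and -0.55 at 18 h. The means were -0.47 ± 0.42 (SD, n = 3) at 12 h (adjusted p = 0.0439), and -0.58 ± 0.04 at 18 h (0.671-fold; adjusted p = 0.00673). The groups at 1 h and 18 h did not overlap, and the difference of -0.74 between them (95% interval -1.14 to -0.33; adjusted p = 0.0523) lay just outside the threshold. Without array 1 or 3 the 12 h adjusted p was 0.278 and 0.175, and with plate centring neither call held (at 18 h -0.21; adjusted p = 0.272).

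Vamp2, the main vesicle SNARE of synapses, was not called with either of its probes. On the probe 23F06 its means ran from -0.54 at 12 h to 0.10 at 6 h, and on the probe 24C01 from -0.14 at 18 h to 0.32 at 1 h. The probes differed in sign at 1 h, where the first gave -0.39, -0.28 and 0.00 and the second 0.19, 0.33 and 0.45, without overlap. Both means were below 0 at 18 h, at -0.33 (adjusted p = 0.244) and -0.14 (adjusted p = 0.539). Vamp3, Vamp5 and Vamp8 were not called either, with 18 h means of -0.13, -0.33 and 0.25.

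Stx4 was the member called lower at each of the 5 times. Syn2, Rab3ip and Rab10 also had means below 0 at every time, of which some or none passed. Stx4 is the plasma membrane syntaxin of exocytosis outside synapses, including the insertion of glucose transporters in fat and muscle. Its log2 ratios were -1.02, -0.67 and -0.63 at 1 h, -0.79, -1.05 and -1.31 at 3 h, -1.11, -1.0 and -0.44 at 6 h, -1.31, -0.66 and -0.82 at 12 h, and -0.92, -0.78 and -1.13 at 18 h. All 15 values were below 0 and the times overlapped. The means were -0.77 ± 0.22 (SD, n = 3; adjusted p = 0.0216), -1.05 ± 0.26 (0.00203), -0.85 ± 0.36 (0.0079), -0.93 ± 0.34 (0.0032) and -0.94 ± 0.18 (0.00103) in order of time, and at 18 h this was 0.52-fold. The difference between 18 h and 1 h was -0.17 (95% interval -0.66 to 0.32; adjusted p = 0.775), and a constant probe bias cannot be told apart from a steady fall here either. With plate centring the means at 3 h and later were -0.82 to -0.58 and kept their calls, and that at 1 h did not (-0.54; adjusted p = 0.11). The 1 h call was lost without array 1, 2 or 3 (adjusted p = 0.221, 0.109 and 0.0906), and the 6 h call without array 1 or 2 (0.0763 and 0.062).

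Stx17, the syntaxin of autophagosomes, fell at 18 h and was called at no earlier time. Its means at 1, 3, 6 and 12 h were -0.06, 0.08, -0.10 and 0.16, none called. At 18 h its ratios were -0.30, -0.99 and -1.35 (mean -0.88 ± 0.53, SD, n = 3; 0.543-fold; adjusted p = 0.0017). The call held without any single array (adjusted p = 0.000313 to 0.0187) and with plate centring (-0.93; adjusted p = 0.00158). It was lost when the 18 h arrays were fitted alone (adjusted p = 0.121). The difference between 18 h and 1 h was -0.82 (95% interval -1.31 to -0.32; adjusted p = 0.0808) and was not called.

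Stx7, a syntaxin of late endosomes, fell at 1 h. Its ratios there were -0.54, -0.55 and -0.49 (mean -0.53 ± 0.03, SD, n = 3; 0.694-fold; adjusted p = 0.0397), and at 3 h its mean was 0.20. The 1 h call was lost without array 1, 2 or 3 (adjusted p = 0.229, 0.254 and 0.196). Its 18 h mean was -0.33 (adjusted p = 0.0731).

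Stx1a and Snap25, the synaptic partners of Vamp2 at the plasma membrane, were not called. Stx1a had means between -0.21 and 0.19, and its 18 h ratios were -0.39, 0.39 and -0.04. Snap25 gave -1.23, -0.28 and -0.20 at 18 h (mean -0.57 ± 0.57, SD, n = 3; adjusted p = 0.0974), so that 1 array was far below the other 2, and its earlier means were between -0.06 and 0.18. Snap91, also known as AP180, which builds clathrin coats for the recovery of vesicles, rose at 18 h with ratios of 0.71, 0.31 and 0.89 (mean 0.64 ± 0.30; 1.56-fold; adjusted p = 0.0242). Without array 1 or 3 its adjusted p was 0.102 and 0.144, and with plate centring the mean was 0.55 (adjusted p = 0.0542).

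Stxbp2 rose at 18 h on the strength of 1 array. It is the Munc18 protein of granule release in blood and epithelial cells. Its ratios were 0.19, 2.14 and 0.62 (mean 0.98 ± 1.02, SD, n = 3; 1.98-fold; adjusted p = 0.0204), and without array 2 the mean was 0.41 (adjusted p = 0.192). Its earlier means ran from -0.18 to 0.28. Stxbp5, or tomosyn, which competes with Vamp proteins for the syntaxin, was called at no time and had an 18 h mean of -0.23 (adjusted p = 0.302).

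Of the 28 probes of the 27 Rab genes, 3 were called at 18 h (10.7%), beside 22% of all probes. Rab3ip, also known as Rabin8, is no Rab itself but loads Rab8 with GTP. Its log2 ratios were below 0 on all 15 arrays, with means of -0.50 at 1 h (adjusted p = 0.0869) and -0.49 at 3 h (0.0827). At 6 h the ratios were -0.19, -0.68 and -1.0 (mean -0.62 ± 0.41, SD, n = 3; adjusted p = 0.0196), at 12 h -0.91, -0.67 and -0.67 (-0.75 ± 0.14; 0.00448) and at 18 h -0.75, -0.95 and -0.52 (-0.74 ± 0.21; 0.598-fold; 0.00165). The 6 h call was lost without array 2 or 3 (adjusted p = 0.0852 and 0.187), and the 12 h call without array 1 (0.0519). Its plate had a median of -0.51 at 6 h, and with plate centring the 6, 12 and 18 h means were -0.09, -0.42 and -0.36, of which none was called (at 18 h adjusted p = 0.0668). The limma difference between 18 h and 1 h was -0.24 (95% interval -0.66 to 0.17; adjusted p = 0.591). A constant bias of the Rab3ip probe cannot be told apart from a steady fall.

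Rab27a, the Rab of secretory granules and melanosomes, was above 0 on all 15 arrays and was called at 18 h. Its ratios were 0.72, 0.69 and 0.44 at 1 h (mean 0.61; adjusted p = 0.333), 1.05, 1.13 and 0.14 at 12 h (0.77; 0.0634) and 1.47, 0.16 and 1.17 at 18 h (0.93 ± 0.69, SD, n = 3; 1.91-fold; 0.0125). Without array 1 or 3 the 18 h adjusted p was 0.116 and 0.0754. With plate centring it was 0.0261. The limma difference between 18 h and 1 h was 0.32 (95% interval -0.40 to 1.04; adjusted p = 0.701). A constant bias of the Rab27a probe cannot be told apart from a steady rise.

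Rab1b, which serves transport from the endoplasmic reticulum to the Golgi, fell at 18 h. Its ratios were -0.95, -0.13 and -0.53 (mean -0.54 ± 0.41, SD, n = 3; 0.689-fold; adjusted p = 0.0201), after means of -0.20 at 6 h and -0.33 at 12 h that were not called. Without array 1 or 3 the adjusted p was 0.187 and 0.0663, and with plate centring it was 0.00851. The 2 probes of its paralog Rab1a gave 18 h means of -0.20 (adjusted p = 0.243) and -0.06 (adjusted p = 0.833), and no more than 0.14 in size at earlier times.

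Rab3a, the Rab of synaptic vesicles, was not called. Its ratios at 18 h were -0.37, -0.35 and -0.10 (mean -0.27 ± 0.15, SD, n = 3; adjusted p = 0.166), and its earlier means ran from -0.22 to 0.13. The median of the 28 Rab probes was between -0.07 and 0.13 at each time. At 18 h those that were not called ran from -0.43 for Rab12 to 0.53 for Rab8b.

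**Figure D2:**
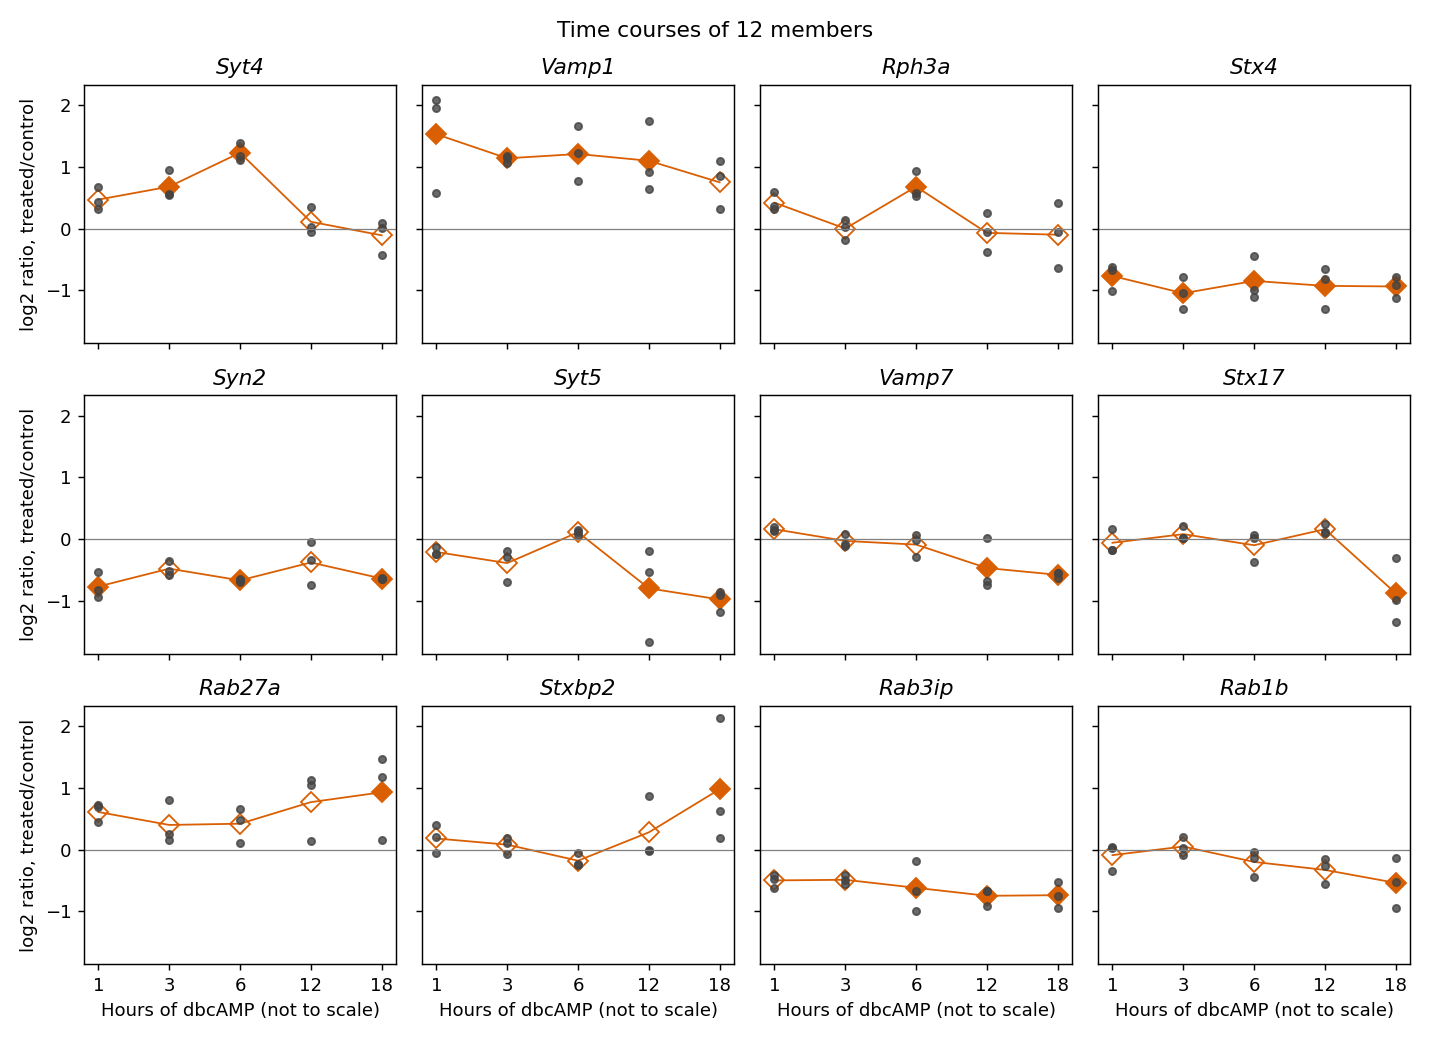
Log2 ratio of treated over control against hours of dbcAMP, times evenly spaced, for 12 members; grey points are the 3 arrays of a time, diamonds their mean, filled where the adjusted p was under 0.05. Syt4 peaks at 6 h at 1.23, Vamp1 stays above 0 and Stx4 below 0 at all times, and Stx17 leaves 0 at 18 h.

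The difference between 18 h and 1 h, in which a constant dye bias cancels, was called for 0 of the 71 members in the limma fit, beside 2.74% of all probes. At an unadjusted p under 0.05 it took 8 member probes (11.3%) and 16.7% of all probes, the members being Vamp7, Stx17, Syt4, Syt5, Rab12, Syt7, Sv2a and the Vamp2 probe 24C01. The methods' test called 1 member after adjustment (1.41%), beside 0.761% of all probes, and 7 without (9.86%), beside 15.9%.

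At 18 h all 11 called members had the same sign on the 3 arrays. They were called from the mean of those same arrays, which favours such agreement. Since those arrays had a wide spread that the shared fit averages with narrower ones, the count was taken again in other fits. With all arrays scaled to a common spread 3 members were called, Syt5, Stx17 and Rab3ip, beside 8.43% of all probes. With the 18 h arrays alone 2 were called, Syt5 and Stx4, beside 3.66%.

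**Figure D3:**
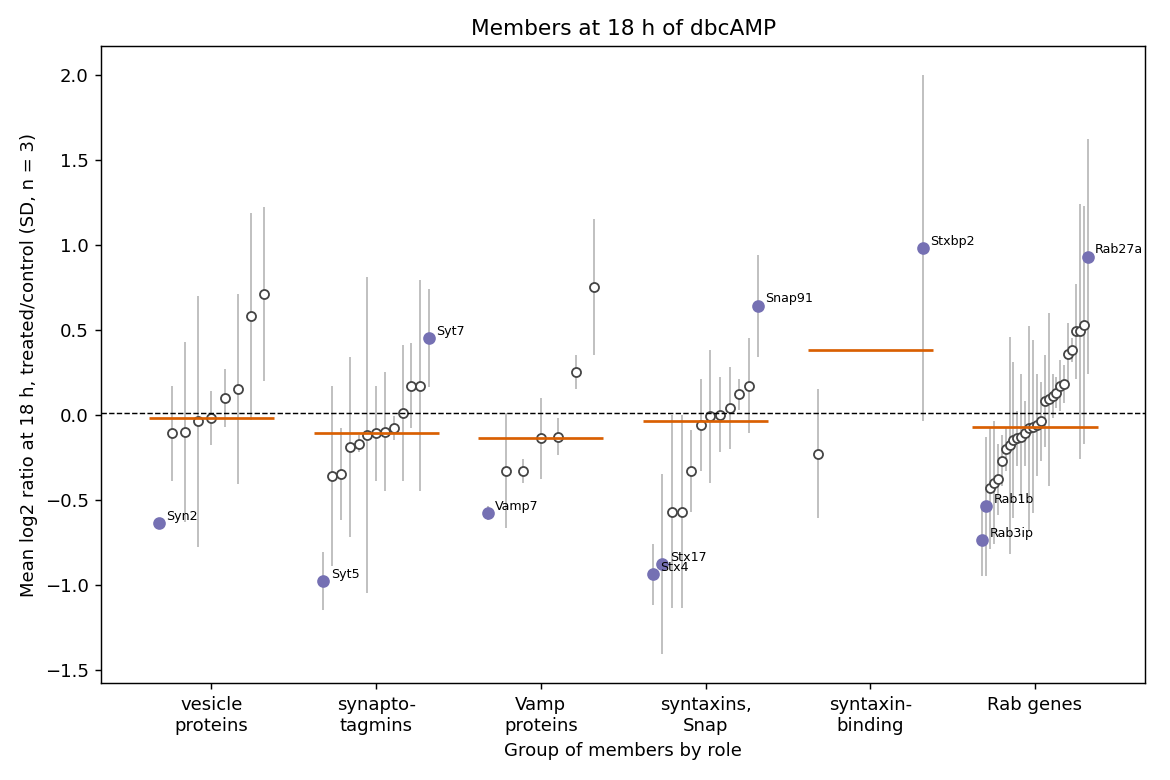
Mean log2 ratio at 18 h of each of the 71 member probes, in groups by role and ordered within a group; grey bars are the SD of 3 arrays, filled points had an adjusted p under 0.05, orange lines are group medians and the dashed line is the median of all probes. Called members run from -0.98 (Syt5) to 0.98 (Stxbp2), and the median of every group but the syntaxin-binding pair lies between -0.14 and -0.02.

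Probe identifiers were read here as a plate number from 1 to 53 and a well, and ratios went with that number. The sources do not describe the printing, so this reading of the identifiers is an interpretation. Members lower at 18 h were mostly on plates 36 and higher: 5 of the 10 members there, Stx4, Syt5, Syn2, Vamp7 and Rab3ip, and 2 of the 61 on plates up to 35, Stx17 and Rab1b. Of all probes tested, 23.2% were lower on plates 36 and higher and 5.43% on the others, while 3.53% and 14.2% were higher. Plate 41, with 6 members, had a median of -0.20 at 1 h, -0.21 at 3 h, -0.19 at 6 h, -0.24 at 12 h and -0.36 at 18 h, and 38.5% of its 96 probes were lower at 18 h. Stx1a and Syn1 shared that plate and had 18 h means of -0.01 and -0.02. Plate 23, with 30 members among its 96 probes, had medians of 0.04 to 0.12. Those medians include the members' own ratios, and how far plate centring removes a change that the members share was not tested.

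With the median of each plate subtracted on each array, 7 members were called at 18 h, beside 20% of all probes, with 2 higher (9.97% of all probes) and 5 lower (10.1%). Stxbp2 and Rab27a were higher, and Rab1b, Stx17 and Stx4 were lower, as before. Rab12, a Rab of recycling endosomes, at -0.51 (adjusted p = 0.0329) and Snap29, a partner of Stx17 on autophagosomes, at -0.79 (adjusted p = 0.011) were called in that fit and not in the fit of the deposited ratios, where they were at -0.43 (adjusted p = 0.0589) and -0.57 (adjusted p = 0.0528). Syn2, Syt5, Vamp7, Rab3ip, Syt7 and Snap91 were no longer called.

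**Figure D4:**
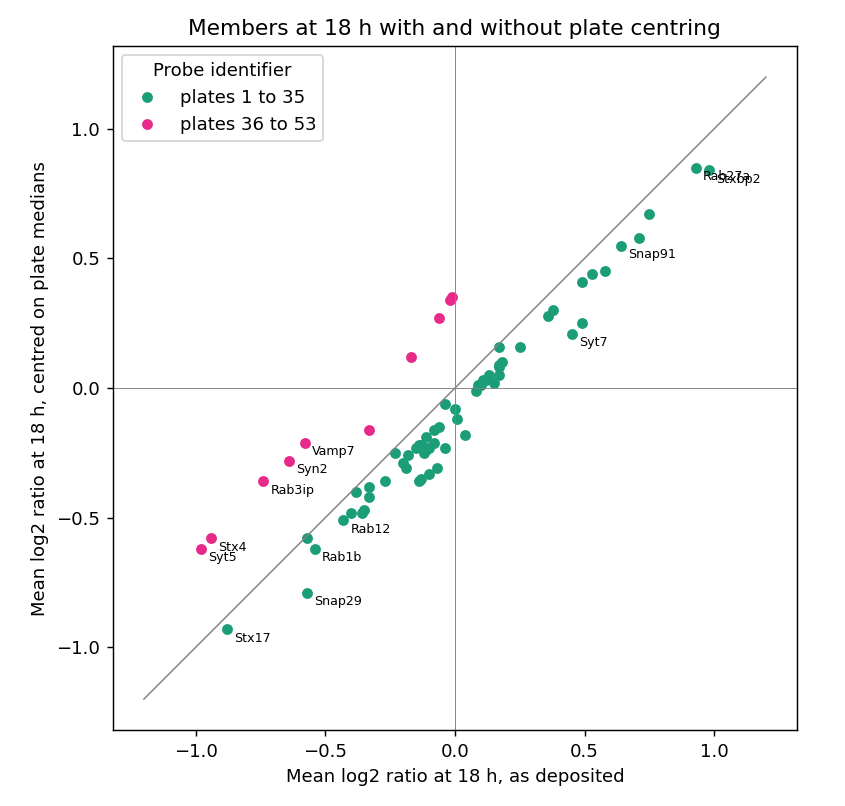
Mean log2 ratio at 18 h of the 71 member probes as deposited (horizontal) and after centring each array on the medians of its probe plates (vertical), coloured by plate group; names mark members called in either fit and the diagonal marks equal values. The 10 members on plates 36 and higher lie above the diagonal, and the 61 others lie below it, some of them only slightly.

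Of 116 genes listed as partners of this machinery, 78 were measured on 79 probes, and their calls were named after their values were seen. At 18 h 5 were higher and 3 lower (10.1% called, beside 22% of all probes), with a median of 0.12. Slc18a3, which loads acetylcholine into vesicles (1.28 ± 0.39, SD, n = 3; adjusted p = 0.000464), Ap1b1, a subunit of the clathrin adaptor of the Golgi (0.96 ± 0.34; adjusted p = 0.00013), Lin7a, Exoc8 and Atp6v1b2 rose. Cplx1, the complexin that clamps the SNARE complex, was lower (-0.75 ± 0.13; adjusted p = 0.00107) and lies on plate 41, and Unc13a, which primes vesicles (-0.74 ± 0.66; adjusted p = 0.02), and Sncg (-0.37 ± 0.04; adjusted p = 0.00566) were lower too. At 12 h Dnm3 was higher and Sncg lower, at 3 h Gdi2 was lower, and at 1 and 6 h no partner was called. Ap1b1 was the partner called for the difference between 18 h and 1 h (1.02; adjusted p = 0.00753).

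Markers of the cell types in a ganglion moved in both directions at 18 h. Of 22 probes for sensory neurons 3 were higher and 4 lower (31.8% called, beside 22% of all probes), with a median of -0.07. The higher ones were Nefl on 1 of its 2 probes (1.03, and -0.01 on the other), Elavl4 (0.45) and Scn11a (0.30), and the lower ones were Uchl1 (-0.84), Ntrk2 (-0.63), Gap43 (-0.59) and Stmn2 (-0.51). Of 16 probes for Schwann cells and satellite glia 3 were higher and 3 lower (37.5% called; median -0.17), and of 11 for fibroblasts 1 was higher and 3 lower (36.4%; -0.25). Of 7 for macrophages 1 was higher and 1 lower (28.6%; -0.04), and of 6 for endothelium none was called (0.11). At 6 h 1 of 22 neuronal probes was called, beside 4.19% of all probes. It was Scn11a, which was higher, and the neuronal median was 0.03. Ratios give no levels, so summed marker levels could not be set beside these values, and the part of cell composition in the members' ratios was not tested.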

How the data were processed

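RNA of dbcAMP-treated and of untreated rat DRG cells was compared on 15 two-colour arrays. For each probe and array the authors deposited a linear ratio, treated over control. The sources used here do not give their background correction, filters or normalization. Intensities were not analysed here, so signal over background is unknown and the number of arrays limits the precision.

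The log2 of each ratio was used as deposited, since array medians were 0.997 to 1.02. Probes were named from the platform annotation, in which 2 of 5088 probes had several symbols and 663 had none. All 69 member symbols stand in the GRCr8 gene table. A probe was tested where 2 of 3 arrays had a ratio. limma 3.58.1 in R 4.3.3 fitted 1 mean per time over all 15 arrays (lmFit, eBayes, two-sided, Benjamini-Hochberg over all probes, threshold 0.05), followed by an F test among times and the 18 h minus 1 h contrast. Plots used matplotlib 3.10.9.

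Described with values were all members called in any test, all probes of their genes, and 15 release machinery genes; others called after plate centring were added once seen. The members, the partner genes, the markers, the plate centring and the border between plates 35 and 36 were chosen with earlier results of these data known. Alternatives were median centring, plate centring, scaling to a common spread, probes with all 15 ratios, the replicate block, array weights, the arrays of a time alone, the methods' test (Student's, per time), a threshold of 0.01 and leaving out arrays.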

Additional observations from a re-analysis of the deposited data

Results flagged for a closer look

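Syt4 differed among the 5 times (limma F test, adjusted p = 0.0111). Its mean log2 ratio was 0.47 at 1 h, 0.68 at 3 h, 1.23 at 6 h, 0.11 at 12 h and -0.11 at 18 h. The 3 arrays at 6 h gave 1.39, 1.12 and 1.18. The adjusted p was 0.0479 with arrays scaled to a common spread, 0.0182 with plate centring, and 0.32, 0.265 and 0.129 without the arrays of number 1, 2 and 3.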

How the results depend on the processing

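No direction of a called member was reversed by any alternative tried. The members' means were left unchanged by the replicate block, the arrays of a time alone, the methods' test and the stricter threshold. The same held for the fit of probes with all 15 ratios. Those alternatives could not have reversed a direction. Counts of all probes called, given in parentheses, mostly moved the same way as those of the members. Beside 4 (118), 3 (145), 6 (212), 5 (430) and 11 (1101) members called at 1, 3, 6, 12 and 18 h, scaling to a common spread gave 8 (322) at 1 h, 7 (442) at 3 h, 3 (256) at 12 h and 3 (422) at 18 h. Plate centring gave 2 (79) at 1 h, 3 (163) at 6 h, 2 (326) at 12 h and 7 (1003) at 18 h. Array weights gave 10 (375) at 1 h, 6 (566) at 3 h and 3 (232) at 12 h. The arrays of a time alone gave 6 (353) at 3 h, 0 (10) at 6 h, 0 (5) at 12 h and 2 (183) at 18 h. The methods' test gave 0 at each of the 5 times after adjustment (0, and 1 at 18 h), and without it 16 (654) at 1 h, 12 (758) at 3 h and 10 (461) at 6 h. A threshold of 0.01 left 2 (47) at 1 h, 1 (79) at 3 h, 3 (95) at 6 h, 2 (176) at 12 h and 6 (617) at 18 h. Leaving out 1 array gave 0 to 1 members (24 to 44) at 1 h, 1 to 2 (53 to 79) at 3 h, 3 (103 to 149) at 6 h, 2 to 6 (142 to 543) at 12 h and 9 to 11 (808 to 918) at 18 h. For the difference between 18 h and 1 h, beside 0 members (137), probes with all 15 ratios gave 1 (148), array weights gave 1 (141), and the methods' test gave 1 (38) after adjustment and 7 (795) without. For the F test, beside 1 member (93), array weights gave 2 (138), a threshold of 0.01 gave 0 (27) and leaving out the arrays of a replicate number gave 0 (5 to 6). Of the 29 calls of single members at single times, 10 were lost with a common spread, 15 with plate centring, 21 with the arrays of the time alone, 5 with array weights and 19 without 1 array or another. The cause of these shifts was not tested.

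The replicate numbers did not pair the arrays: deviations from the time means correlated at -0.06 to 0.06 over 30 same-numbered pairs. The replicate block gave 3 (99), 2 (139), 5 (185), 4 (394) and 12 (1088) members called at 1, 3, 6, 12 and 18 h. Its 18 h minus 1 h contrast called 0 (102) and its F test 1 (52), all probes again in parentheses. With 3 arrays per time, no dye exchange and no signal levels, small changes and those of weakly expressed genes cannot be judged.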
